A study of Homo sapiens with 2 samples.

Results

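Imprinted genes are expressed mainly or solely from 1 parental allele, and 50 of them, in 23 imprinted domains, were followed here in H9 human embryonic stem (ES) cells. The members were named by symbol and were found on the array as the non-control probes whose RefSeq accession belongs to a member. Probes were found for 45 of the 50 members, which gave 69 of the 58201 probes. The other 5, SNHG14, PEG13, GPR1-AS, MEG8 and MCTS2, had no probe matched by accession and were not analysed here.

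H9 is an established human ES cell line, and per the labels both samples were grown on Matrigel, a basement membrane extract, in the serum-free medium TeSR-E8, with no genetic change or drug named in the labels. Substate 1 was the culture at passage 35 and substate 2 the culture at passage 50. The study named them from colony staining, with a strong R-10G epitope, a keratan sulphate pluripotency marker, and little vimentin in substate 1, and with weak R-10G and strong vimentin in wide-spaced colonies in substate 2. The study saw both kinds of colony on Matrigel. Its methods put cells on Matrigel at passage 35, so the time spent on it may have differed too. Total RNA of each substate was hybridised to 1 single-colour Agilent array. With 1 array per substate, no difference could be tested between cultures. Substate, passage and time on Matrigel cannot be told apart. All 7 pluripotency markers, among them POU5F1 and NANOG, were measured on both arrays and had a median difference of 0.18 on the log2 scale, from -0.03 to 0.42. VIM, the intermediate filament vimentin, was 5.76-fold higher in substate 2, and CDH1, the epithelial cadherin, was 2.78-fold lower.

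In an imprinted domain, a control region carries DNA methylation on the allele of 1 parent only. That mark is set in the germ line, escapes the erasure that follows fertilisation, and decides which neighbouring genes each allele expresses. Long noncoding RNAs often run through these domains, and many of the coding genes govern fetal and placental growth. In cultured human pluripotent stem cells, imprinted methylation is known to be less stable than in the embryo. The array reads total RNA and does not tell the alleles apart, so no value below says from which allele an RNA came.

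Signals are given as log2 values relative to the 75th percentile of the array, so that 0 is that percentile, and each difference is substate 2 minus substate 1. A probe was called measured when its signal was well above background by the scanner software. Of the 69 probes, 53 were measured on both arrays, 4 in substate 1 alone, 1 in substate 2 alone and 11 on neither. By gene, 37 members were measured on both arrays, ZIM2 and PLAGL1 on 1 array, and RTL1, MKRN3, ZNF597, DIRAS3, ERAP2 and KLF14 were near background on both.

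The zinc finger protein ZFP57 keeps imprints by binding a hexamer in the methylated allele, and UHRF1 brings the maintenance methyltransferase DNMT1 to newly copied DNA. In a list of 23 imprint regulators, 20 were measured on both arrays, with a median difference of 0.12 and 14 above 0. Over all genes measured on both arrays the median was 0.08, and 59.8% were above 0. ZFP57 went from -1.65 to -3.79, which is a difference of -2.14 or 4.41-fold lower. Its probe was dim, and with a model-based background correction the difference was -0.77. That correction adds a constant to every signal, which draws the differences of dim probes toward 0 whatever their true size. UHRF1 was higher in substate 2 at both probes, from 2.498 to 3.56 at the first and from 0.12 to 1.14 at the second. TRIM28, the corepressor that ZFP57 recruits, went from 5.34 to 5.76, DNMT1 from 2.84 to 3.02, and the de novo methyltransferase DNMT3B from 6.84 to 7.04. The zinc finger protein ZNF445, which also keeps imprints, had 3.50 and 3.17. With the same background correction the UHRF1 probes differed by 0.95 and 0.90, so ZFP57 was the regulator farthest from 0 without that correction and not with it.

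The ZFP57 hexamer TGCCGC was searched on both strands (GCGGCA on the other), with overlapping matches counted, in RefSeq promoter windows that run from 250 bases before to 50 bases after a transcript start (GRCh38.p14). Windows were given for 34 members. The hexamer was found in 23 of their 68 windows (33.8%), against 16.7% of all 35116 windows, and 9 of the 68 (13.2%) held 2 or more, against 2.75% of all. By gene, 15 of the 34 members had at least 1 match (44.1%), against 19.5% of 27305 genes. Members had more windows per gene (68 for 34, against 35116 for 27305), so they had more places for a match. The shares by gene are therefore not alike in their basis. A match is a run of letters and says nothing of binding or of methylation in these cells. The 5 windows below are those with at least 2 matches, shown in capitals, at genes whose maternal allele is known as the methylated one (KLF14, which has no such region of its own, is left out), with the window of most matches for each gene. Windows that 2 members share were counted for each of them in the shares above. Overlapping windows of 1 gene, such as those of MEG3, were also counted each, so the same match can enter more than once. The windows were not matched for base composition, and the shares were not tested.
SNRPN (first exon shared with SNURF; chr15:24954737-24955036, plus strand): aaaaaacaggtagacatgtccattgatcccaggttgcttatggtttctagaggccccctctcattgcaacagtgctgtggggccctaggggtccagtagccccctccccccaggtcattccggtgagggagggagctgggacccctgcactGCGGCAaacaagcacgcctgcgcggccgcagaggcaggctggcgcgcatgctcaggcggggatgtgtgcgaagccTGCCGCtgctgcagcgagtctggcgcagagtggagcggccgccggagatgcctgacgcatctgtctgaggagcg
MEST (chr7:130491835-130492134, plus strand): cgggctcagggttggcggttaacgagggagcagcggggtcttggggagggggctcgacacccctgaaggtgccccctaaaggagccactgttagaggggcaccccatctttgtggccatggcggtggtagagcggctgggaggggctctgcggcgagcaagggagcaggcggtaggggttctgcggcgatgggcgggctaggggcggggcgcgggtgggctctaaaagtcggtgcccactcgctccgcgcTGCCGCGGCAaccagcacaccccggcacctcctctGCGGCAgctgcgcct
HYMAI (window shared with PLAGL1; chr6:144008210-144008509, minus strand): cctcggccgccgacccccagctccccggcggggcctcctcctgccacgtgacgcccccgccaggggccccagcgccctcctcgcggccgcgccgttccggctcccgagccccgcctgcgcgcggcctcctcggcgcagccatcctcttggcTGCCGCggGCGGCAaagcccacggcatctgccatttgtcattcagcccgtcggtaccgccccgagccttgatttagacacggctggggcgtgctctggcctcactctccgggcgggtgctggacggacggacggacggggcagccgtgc
DIRAS3 (chr1:68050578-68050877, minus strand): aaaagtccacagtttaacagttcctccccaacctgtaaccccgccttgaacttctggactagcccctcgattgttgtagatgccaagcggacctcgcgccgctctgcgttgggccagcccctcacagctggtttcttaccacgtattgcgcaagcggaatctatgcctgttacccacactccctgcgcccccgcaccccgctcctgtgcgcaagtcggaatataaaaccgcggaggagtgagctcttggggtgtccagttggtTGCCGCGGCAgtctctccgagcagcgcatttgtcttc
NAP1L5 (chr4:88697780-88698079, minus strand): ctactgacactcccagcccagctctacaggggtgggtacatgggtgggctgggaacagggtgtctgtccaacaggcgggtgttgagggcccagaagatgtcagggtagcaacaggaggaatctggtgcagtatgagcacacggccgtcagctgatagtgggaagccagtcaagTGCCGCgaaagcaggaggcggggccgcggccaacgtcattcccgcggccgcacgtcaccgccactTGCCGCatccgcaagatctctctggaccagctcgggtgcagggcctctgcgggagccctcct
The MEST window holds 3 matches, of which a pair on opposite strands overlaps, and the pair in DIRAS3 overlaps in the same way. The RNA of these genes differed little or was dim. MEST went from 4.46 to 4.36, SNRPN from 5.22 to 5.44, HYMAI from -2.75 to -2.84 and NAP1L5 from -1.90 to -1.53, while DIRAS3 was near background on both arrays, at -6.40 and -4.92. The 12 measured members with the hexamer had a median of 0.20, and those with a window but no match had -0.10 over 13 genes, with ranges that overlapped almost wholly (-0.70 to 0.56 and -0.76 to 0.76).

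By their median the imprinted genes lay close to other genes. The median difference of the 37 members was 0.06, and that of all 16001 genes measured on both arrays was 0.08. Of the members 20 were above 0 (54.1%), compared with 59.8% of all genes, and 28 lay within 0.5 of 0. The SD over members was 0.47 and over all genes 0.38. By gene mean, 4 of the 37 members were at least 1.5-fold higher and 3 at least 1.5-fold lower. The shares of all genes were 4.32% and 5.03%, and the small member counts were not tested against them. The member median was -0.01 with quantile normalisation and -0.03 with loess centring, so its sign was not settled.

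The study's Z-score is the difference of a probe less the mean over all probes, divided by their SD, and 2 or -2 were taken as limits, which corresponded to 2.53-fold higher and 2.29-fold lower. Of all probes 3.03% were past the upper limit and 3.3% past the lower one, and 63.5% of these were near background on both arrays. Among member probes 3 of 69 were past the upper limit (1 each of DLK1, NNAT and DIRAS3) and 1 past the lower (TP73). With at least a 2-fold difference among probes measured on at least 1 array, the background was 1.55% higher and 1.67% lower, and the members had 3 of 58 higher (DLK1, NNAT and GNAS) and 1 lower (TP73). The DIRAS3 probe was past the limit with a signal near background on both arrays. These are 1 to 3 probes a direction, and their shares were not tested against the background. The nearest probes short of the Z-score limits were GNAS at 1.91 and ZIM2 at -1.94.

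**Figure D1:**
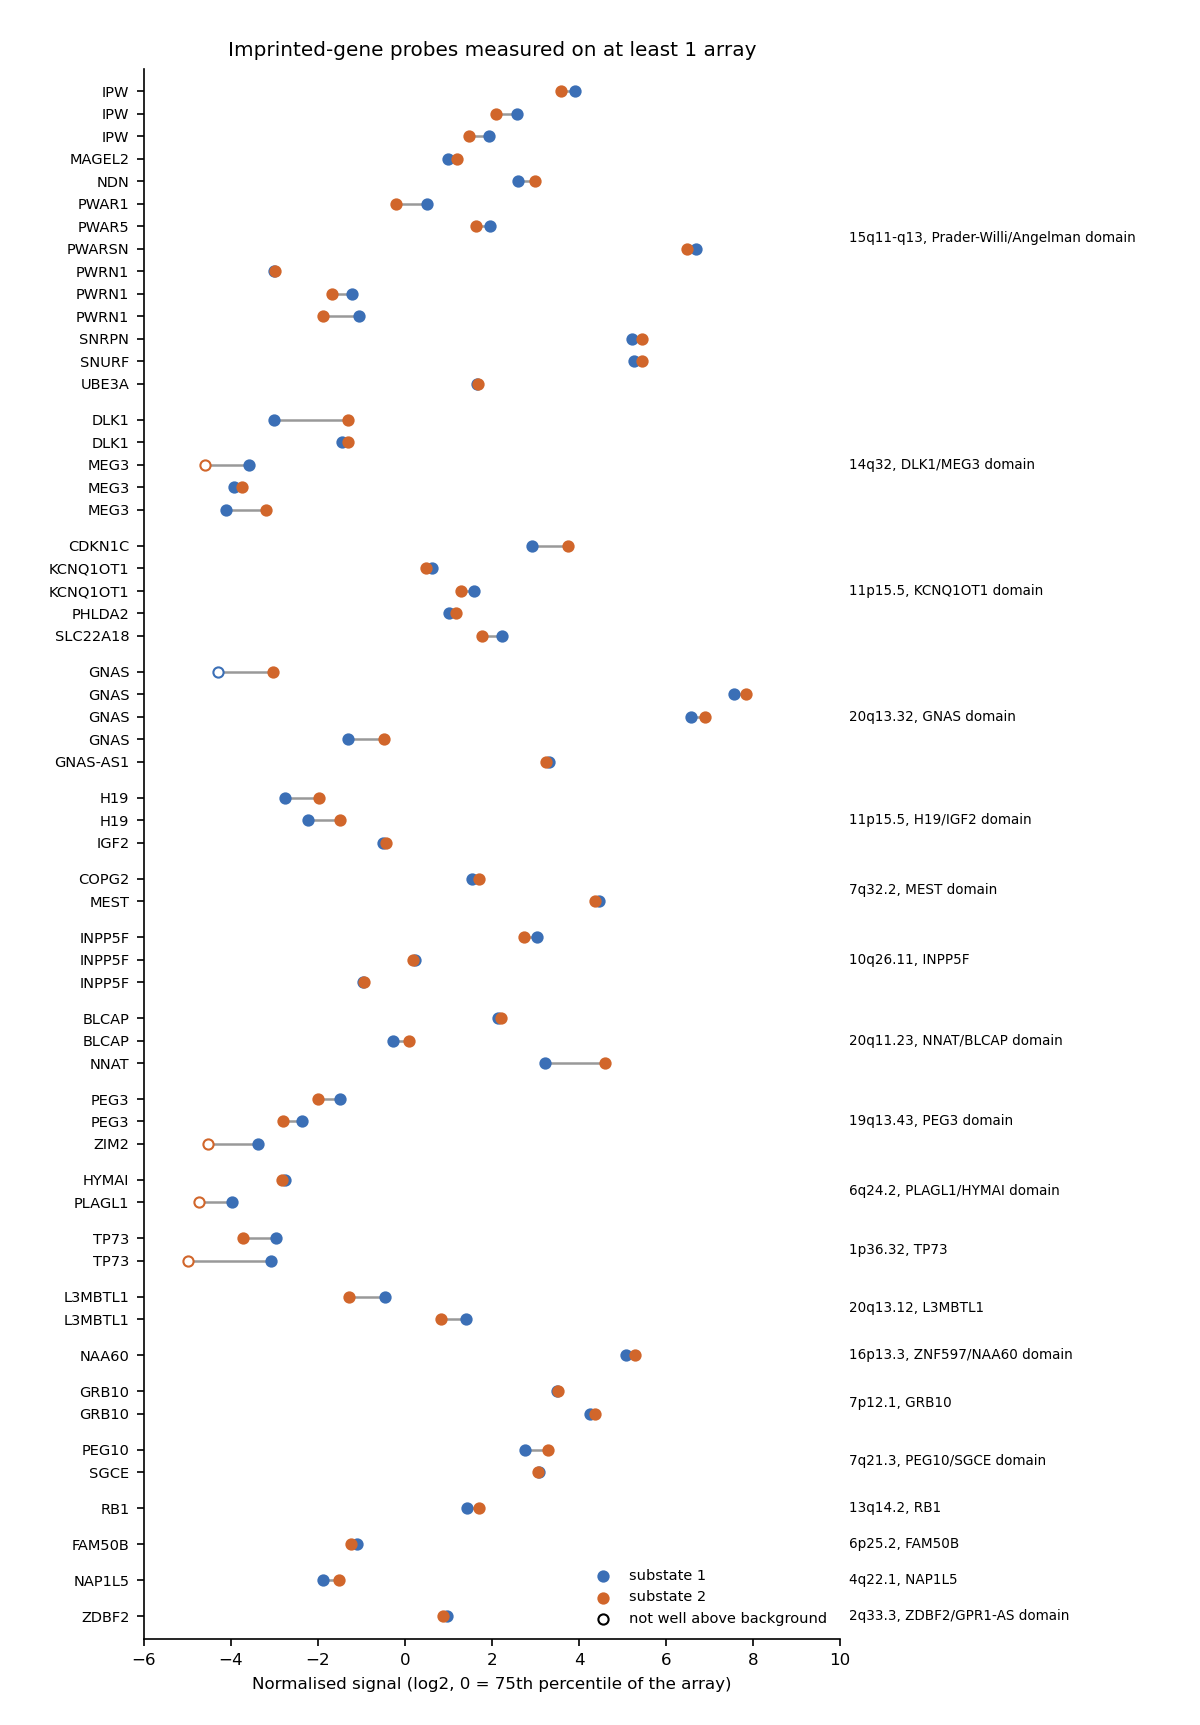
Normalised signal (log2, 0 = 75th percentile of the array) of the 58 imprinted-gene probes measured on at least 1 array, in substate 1 (blue) and substate 2 (orange), grouped by imprinted domain; open circles are not well above background. Most pairs nearly coincide, and NNAT, 1 probe of DLK1 and the dim probes of TP73 and GNAS are among the widest apart.

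Precision within an array came from probes printed more than once. Repeat spots of the same probe had a median SD of 0.046 in substate 1 (293 probes) and 0.052 in substate 2 (291 probes), which gives a difference between single spots an SD of 0.069. RB1, the retinoblastoma tumour suppressor, is the member printed 10 times, and had 1.42 ± 0.061 (SD over 10 spots) in substate 1 and 1.70 ± 0.070 in substate 2, a difference of 0.28 with an SE of 0.029 from the spots. This error covers printing and scanning and leaves out the spread between cultures, so a difference several times the spot SD was shown for these 2 arrays and not for the substates. Probes of the same gene differed more: over 4236 genes the median range between probes was 0.18.

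Among paternally expressed genes, NNAT had the largest mean difference over a gene's probes, although 1 probe of DLK1 differed by more. NNAT, at 20q11.23, codes for neuronatin, a small membrane protein of the developing nervous system, and lies within an intron of BLCAP. Its signal was 3.22 in substate 1 and 4.61 in substate 2, which is 2.61-fold higher, and the difference was between 1.26 and 1.43 over the 5 scalings and background corrections tried. The BLCAP probes went from 2.13 to 2.20 and from -0.27 to 0.10. The host gene therefore differed by 0.07 and 0.37 where NNAT differed by 1.39. Of the 3 neural markers, SOX1 and POU3F2 were well above background in substate 2 only, and PAX6 was near background on both arrays. Of the 4 trophoblast markers, CGA was well above background in substate 2 only, KRT7 and CGB3 on both arrays and GATA3 on neither. The 3 mesendoderm markers were near background on both arrays. Of the 5 fibroblast markers, 3 were measured on both arrays, with differences from -0.50 to -0.11. The part of any of these genes in the NNAT value was not tested.

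In the 14q32 domain, DLK1, a transmembrane ligand of the Notch family that restrains adipocyte differentiation, is paternally expressed, and the long noncoding RNA MEG3 is maternally expressed. One DLK1 probe went from -3.00 to -1.32, or 3.22-fold higher, and the second from -1.46 to -1.31, or 1.11-fold. The probes thus gave unequal differences, and with the model-based background correction the first differed by 0.95. MEG3 was dim throughout. Its probes measured on both arrays went from -3.93 to -3.74 and from -4.11 to -3.19, another was measured in substate 1 alone and was at least 1.52-fold lower in substate 2, and the remaining 3 were near background, so MEG3 has no settled direction. RTL1 was near background on both arrays. None of the 37 genes of the SNORD113 and SNORD114 snoRNA clusters with a probe was measured on either array.

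At 11p15.5, the H19/IGF2 domain holds the maternally expressed noncoding RNA H19 and the paternally expressed growth factor IGF2. H19 went from -2.76 to -1.97 and from -2.23 to -1.49 at its 2 probes, which is 1.73-fold and 1.67-fold higher. With the model-based background correction its mean difference was 0.37 in place of 0.76. IGF2 had -0.50 and -0.43 at 1 probe, a difference of 0.06 that was below 0 with that correction, and its other probe was near background. H19 was thus higher in substate 2 at both probes, and the reciprocal gene IGF2 had no settled sign.

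In the neighbouring KCNQ1OT1 domain, the paternally expressed noncoding RNA KCNQ1OT1 silences maternally expressed genes on its own chromosome. CDKN1C, an inhibitor of cyclin-dependent kinases, went from 2.92 to 3.74, or 1.77-fold higher, with a range of 0.71 to 0.86 over the scalings. PHLDA2, a brake on placental growth, had 1.02 and 1.17, and SLC22A18, a membrane transporter, had 2.23 and 1.78. KCNQ1OT1 was slightly lower in substate 2 at both probes, from 0.61 to 0.48 and from 1.60 to 1.29. The 3 maternally expressed genes of the domain therefore did not share a direction.

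The 15q11-q13 domain, whose paternal loss underlies Prader-Willi syndrome and whose maternal loss underlies Angelman syndrome, had 10 members measured on both arrays. From the SNRPN control region the paternal allele makes 1 long transcript that reads through SNURF and SNRPN, a spliceosomal protein gene. It goes on into noncoding exons and C/D box snoRNAs (guides for RNA methylation) and can run antisense to UBE3A, a ubiquitin ligase. How far it ran in these cells was not tested. All 5 measured coding members were above 0, with the exception of UBE3A under 2 of the scalings. SNRPN and SNURF went from 5.22 to 5.44 and from 5.27 to 5.45, NDN, a neuronal growth suppressor, from 2.59 to 2.98, and MAGEL2, a ubiquitin ligase cofactor, from 0.98 to 1.201. UBE3A had 1.66 and 1.69, a difference of 0.03 that was below 0 with quantile normalisation and loess centring.

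The 4 noncoding members downstream of SNRPN were all below 0. PWARSN went from 6.68 to 6.48 and PWAR5 from 1.96 to 1.63. IPW had 3.90 and 3.59 at 1 probe, 2.57 and 2.10 at another and 1.94 and 1.47 at the third. PWAR1 went from 0.50 to -0.20, or 1.62-fold lower. The median of these 4 genes was -0.37, between -0.48 and -0.33 over the 5 scalings and corrections. PWRN1, an RNA from upstream of SNRPN, gave a mixed result, with -3.01 and -2.99, -1.22 and -1.67, and -1.07 and -1.88 at its measured probes. SNRPN and SNURF were above 0 and the RNAs that follow them on the same strand below it. The coding side was not settled, since SNRPN differed by 0.08 with quantile normalisation and 0.07 with loess centring, and SNURF by 0.03 and 0.01, both smaller than the SD of a difference between single spots.

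The snoRNAs within that transcript lay below 0 as well. Of 35 genes named SNORD116, SNORD64, SNORD107, SNORD108 or SNORD109, 14 had a probe, 13 were measured on both arrays, and 0 of the 13 were above 0, with a median of -0.44. They were examined after the values of the host RNAs had been seen. All other SNORD genes had a median of -0.40 over 119 measured genes, of which 5 were above 0, so the medians of the domain and of the rest of its class lay close together. The SNORD116 copies are nearly alike in sequence, and their probes may share RNA. None of the 10 SNORD115 genes with a probe was measured on either array.

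**Figure D2:**
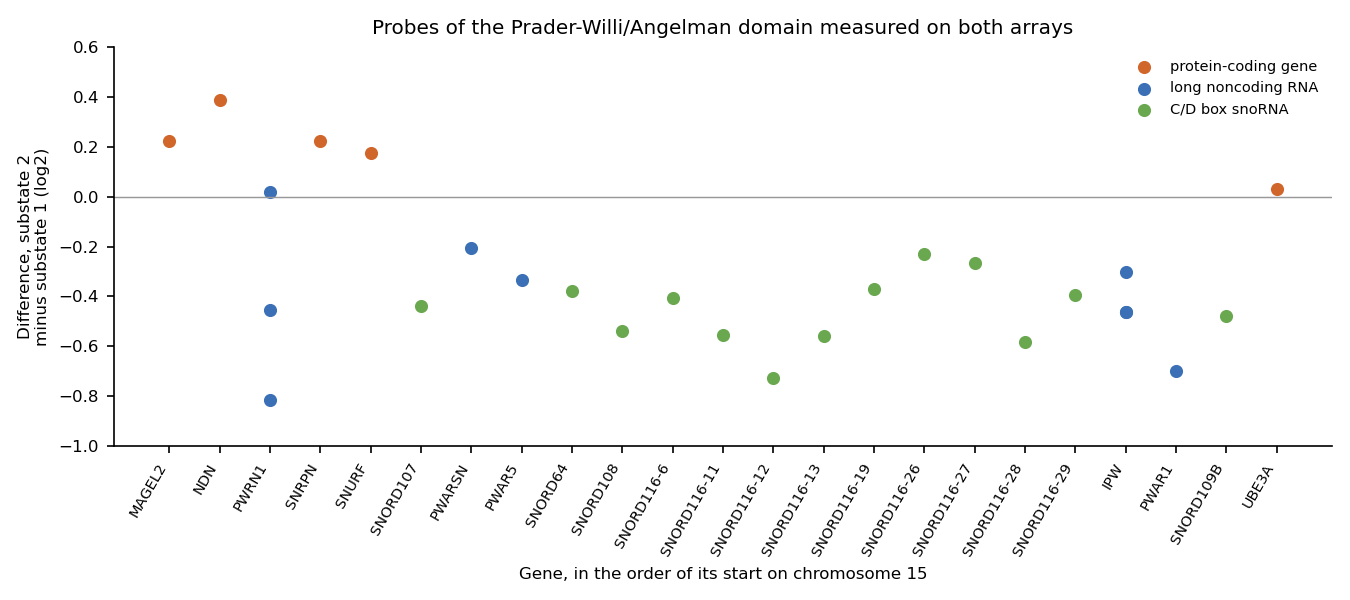
Difference (substate 2 minus substate 1, log2) of each probe measured on both arrays in the Prader-Willi/Angelman domain, with genes in the order of their starts on chromosome 15 and coloured by kind. The coding genes lie between 0.03 and 0.39, the 13 snoRNA genes between -0.73 and -0.23, and the long noncoding RNAs between -0.82 and 0.02.

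By kind of RNA, the 9 long noncoding members measured on both arrays had a median of -0.22. Of these, 2 were above 0, H19 and MEG3, and MEG3 has no settled direction. The 27 coding members had a median of 0.15, with 18 above 0. With quantile normalisation and loess centring these medians were -0.37 and -0.38 for the long noncoding members and 0.08 and 0.06 for the coding members. All long noncoding genes had a median of -0.01 (1244 genes), all coding genes 0.10 (14108 genes) and all snoRNA genes -0.32 (227 genes). Above 0 were 49.4% of all long noncoding genes and 61.8% of all coding genes, and the coding members lay near the share of their class. Of the 9 long noncoding members, 5 come from 15q11-q13, and so share a transcript or a domain.

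At 19q13.43, PEG3, a paternally expressed zinc finger gene, was lower in substate 2 at both probes, from -1.503 to -2.003 and from -2.37 to -2.80. ZIM2, which shares its first exons, went from -3.37 to a signal not well above background at -4.52, or at least 1.77-fold lower. With the model-based background correction, PEG3 differed by -0.16 and ZIM2 by -0.07. At 7q21.3, PEG10, a retrotransposon-derived gene needed in the placenta, went from 2.77 to 3.28, or 1.43-fold higher, and SGCE, the epsilon-sarcoglycan gene that starts next to it on the other strand, had 3.08 and 3.07. The difference of SGCE, -0.01, was above 0 with median centring. At 7q32.2, COPG2, a coatomer subunit gene, had 1.55 and 1.71 beside the values of MEST given above. At 6q24.2 PLAGL1, a zinc finger growth regulator, was measured in substate 1 alone, at -3.97, and was at least 1.17-fold lower in substate 2. Its probe was dim, and with the model-based background correction PLAGL1 differed by -0.05.

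The GNAS domain at 20q13.32 makes several transcripts of different parental origin that share the downstream exons for the stimulatory G protein alpha subunit. Both probes annotated to NM_001077489 were bright, from 7.56 to 7.84 and from 6.58 to 6.90. The probe of NM_016592, the maternally expressed transcript of a neuroendocrine secretory protein, went from -1.30 to -0.47, or 1.78-fold higher. The probe of NM_001077490 went from a signal not well above background at -4.31 to -3.03, which is at least 2.42-fold higher, and by 0.50 with the model-based background correction. GNAS-AS1, the paternally expressed antisense RNA, had 3.31 and 3.23. All 4 GNAS probes were thus higher in substate 2, and the antisense RNA differed by -0.08.

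TP73 and L3MBTL1 were lower in substate 2 by about as much as PWAR1, and their order depended on the background correction. TP73, a relative of the p53 tumour suppressor at 1p36.32, went from -2.96 to -3.72 at 1 probe, or 1.70-fold lower, and at the other from -3.09 to a signal not well above background at -4.99, or at least 2.16-fold lower. Both probes were dim, and with the model-based background correction they differed by -0.16 and -0.31. L3MBTL1, a chromatin-compacting protein gene at 20q13.12 that is paternally expressed, went from -0.45 to -1.28 and from 1.40 to 0.82, or 1.77-fold and 1.5-fold lower. Its mean difference lay between -0.72 and -0.55 over the scalings. The background correction draws dim probes toward 0, and the L3MBTL1 probes were brighter than those of TP73. The correction therefore cannot tell which of the 2 differences is the firmer.

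The remaining members differed by at most 0.30 at any probe. NAA60, an acetyltransferase gene at 16p13.3, had 5.08 and 5.28, and ZDBF2, a zinc finger gene at 2q33.3, 0.97 and 0.88. FAM50B at 6p25.2 had -1.10 and -1.25. INPP5F, an inositol phosphatase gene at 10q26.11, went from 3.03 to 2.74 at 1 probe and differed by -0.05 and 0.03 at the others. GRB10, a growth-restraining adaptor at 7p12.1, had 3.49 and 3.51, and 4.25 and 4.36, and its small difference was below 0 with quantile normalisation and loess centring.

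The members were also grouped by the allele listed as expressed, which was not checked in these cells. For all genes measured on both arrays, 59.8% were above 0 and the median was 0.08. The 23 members listed as paternal and measured on both arrays had a median of -0.08, with 9 above 0 and a range of -0.70 to 1.39. Many of these paternal members come from the Prader-Willi/Angelman domain. Its noncoding RNAs IPW, PWRN1, PWAR1, PWAR5 and PWARSN were below 0, and its coding genes SNRPN, SNURF, NDN and MAGEL2 above it. The paternal median therefore leans on this domain, and its sign without the noncoding RNAs was not tested. The 6 members listed as maternal had a median of 0.36, in a range of -0.45 to 0.82. Of these, 5 were above 0 (H19, CDKN1C, MEG3, PHLDA2 and UBE3A), and SLC22A18 was below it. The 8 members whose allele depends on the isoform or is unsettled had a median of 0.18, with 6 above 0. The ranges overlapped, domain neighbours are not independent, and 3 of the 6 maternal values (H19, MEG3 and UBE3A) were dim or of no settled sign. The paternal median stayed between -0.12 and -0.04 over the scalings, and the maternal median was 0.23 with the model-based background correction.

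**Figure D3:**
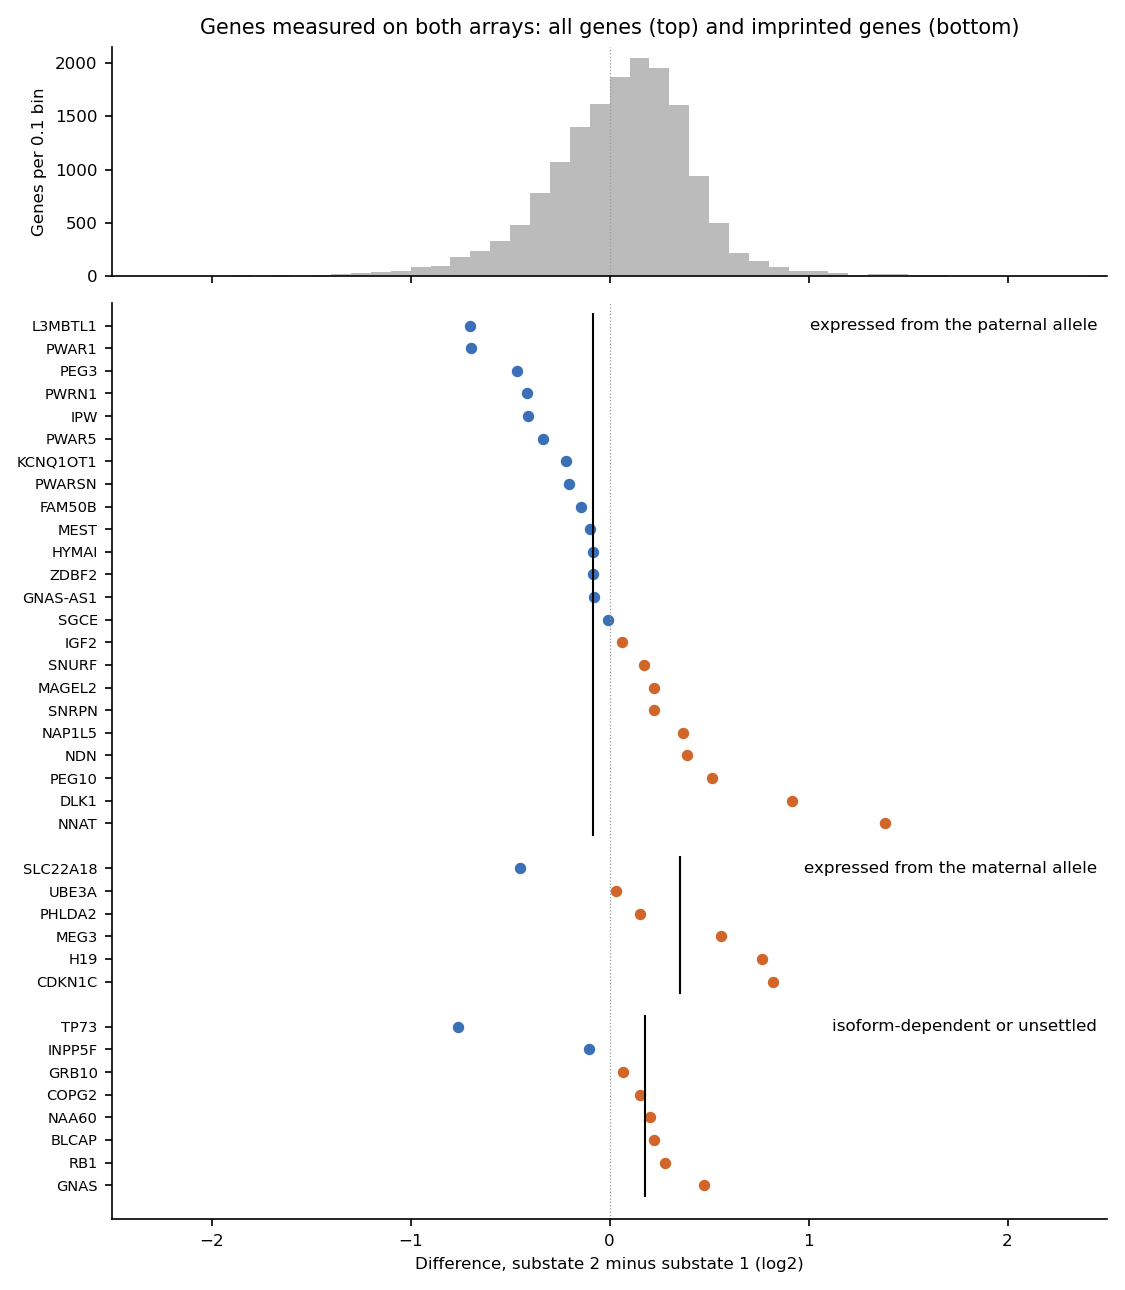
Difference (substate 2 minus substate 1, log2) of all 16001 genes measured on both arrays (top) and of the 37 imprinted genes (bottom). The top gives genes per bin of 0.1, with genes beyond the axis counted in the end bins. The imprinted genes are grouped by the allele listed as expressed. Each of their points is the mean over a gene's measured probes, and black lines are the medians. The medians are -0.08, 0.36 and 0.18 from top to bottom, and all members lie between -0.76 and 1.39.

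Probes of 1 member mostly agreed in sign. Of 12 members with at least 2 probes measured on both arrays, 10 had all of them on the same side of 0, and PWRN1 and INPP5F did not. Among these 12, the probes of DLK1 lay farthest apart, although both were above 0.

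**Figure D4:**
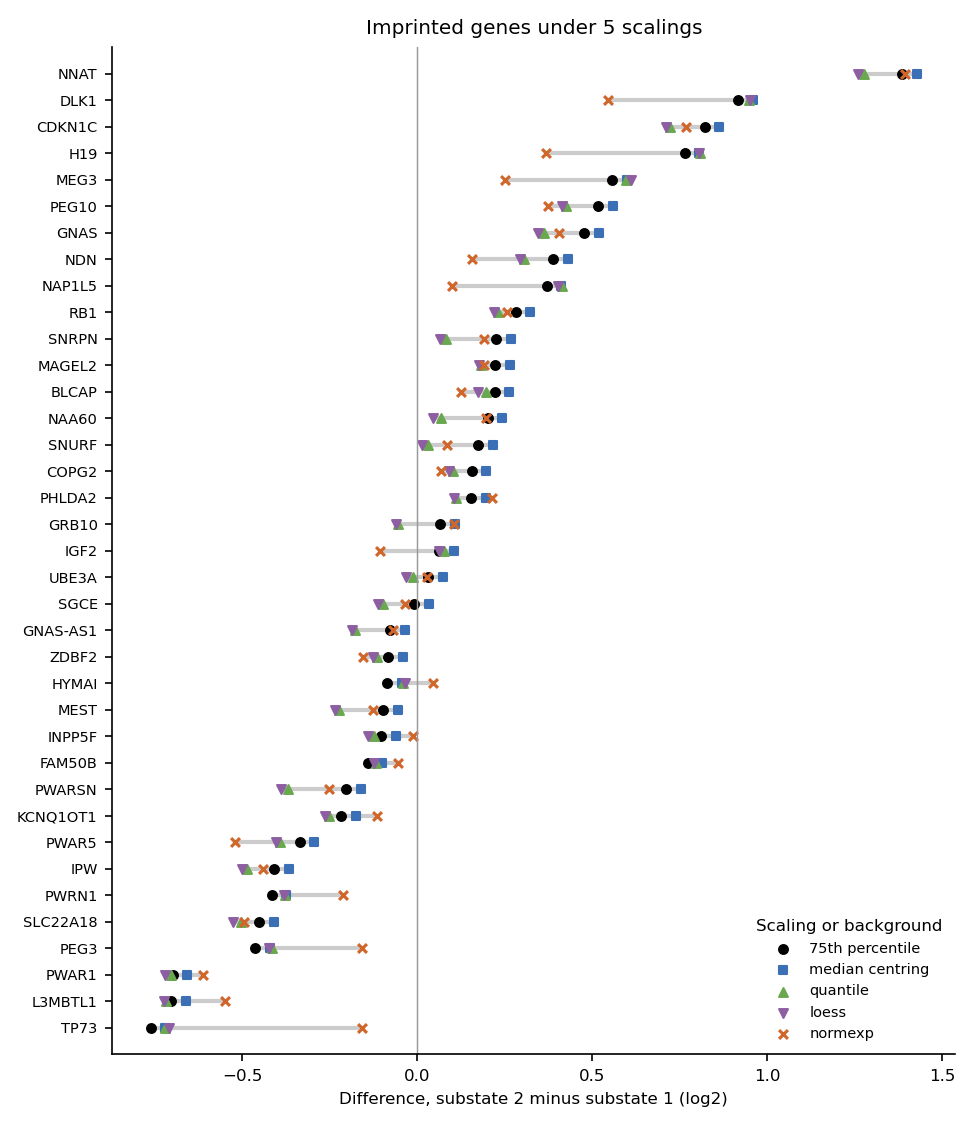
Difference (substate 2 minus substate 1, log2) of each imprinted gene measured on both arrays under 75th percentile, median, quantile and loess scaling, and with normexp background correction. NNAT stays at 1.26 or above, while the normexp values (crosses) of the dim genes DLK1, H19, MEG3, PEG3 and TP73 lie nearer to 0.

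Genes beyond the members gave a setting for these values. For comparison, 59.8% of all genes measured on both arrays were above 0, and their median was 0.08. Of 38 other genes listed as imprinted, 35 had a probe and 19 were measured on both arrays, with a median of -0.23 and 5 above 0, and between -0.27 and -0.15 over the scalings. Of their 28 probes measured on at least 1 array, 1 (of the adhesion gene DSCAM) was at least 2-fold higher, from a signal not well above background at -4.32 to -2.91. Of 82 genes that flank the domains, 71 were measured, with a median of 0.16 and 47 above 0, and of their 102 probes measured on at least 1 array, 4 were at least 2-fold higher (both of WLS, a Wnt secretion factor beside DIRAS3, and 1 each of MDH1B and CCDC27) and 0 lower, where the shares over all probes were 1.55% and 1.67%. At MDH1B another probe went the other way, from 3.70 to 3.33.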

How the data were processed

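Total RNA from 2 cultures of H9 cells was hybridised to single-colour Agilent arrays (SurePrint G3 Human), and the authors deposited the scanner output of Feature Extraction 11.5.1.1 (protocol GE1_1105_Oct12, annotation on hg19), in which gProcessedSignal is a background-subtracted intensity on a linear scale. A deposited value table holds the authors' log2 values, which matched those computed here to within a constant (tolerance 0.01) for 100% of probes. The members, lists and alternatives were chosen with earlier results of these data known.

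Control spots were left out, processed signals were floored at 1 (0 spots were under it), spots of a probe were averaged, log2 was taken and each array was centred on its 75th percentile. Of the spots 57.4% and 54.7% were well above background in substate 1 and 2, and 0 were saturated. Genes were named by RefSeq accession through a GRCh38.p14 table, used for names, biotypes and gene order (31104 of 58201 probes, 22439 genes). SLC22A18 is SLC67A1 there, and GPR1-AS is CMKLR2-AS. A gene's value is the mean over its probes well above background on both arrays. A probe well above background on 1 array has a bound, taken against the higher of its own signal and the lowest well-above-background signal on the other array (-4.44 in substate 1 and -4.20 in substate 2).

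With 1 array per substate, no test across genes was made. The counts of probes past a limit and the medians are descriptions. Named genes were all members with a measured probe. Alternatives were median centring, quantile normalisation, loess centring on intensity (span 0.3), normexp background correction (limma 3.58.1 in R 4.3.3, offset 50, run on median signals because the files used here have no mean signal column), other Z-score bases and fold limits, and the brightest probe of each gene. The calculations ran in Python 3.11.15 with numpy 2.4.6, pandas 2.3.3 and statsmodels 0.14.6 and were tested on simulated data.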

Additional observations from a re-analysis of the deposited data

How the results depend on the processing

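No paired analysis was possible because there was a single array of each substate, which also leaves no replicate to omit. Naming probes by the gene name printed on the array was not run, since the scanner files used here have no such column. The values below are to be read against 3 member probes past the upper Z-score limit and 1 past the lower, 3 probes at least 2-fold higher and 1 lower, and medians of 0.06 (all members) and 0.36 (maternal).

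The number past the lower limit was 9 with normexp correction, 10 with an SD from the median absolute deviation and 2 with the Z-score taken over probes measured on both arrays. The number past the upper limit was 5 with each of the last pair of settings. At least 2-fold higher were 1 with normexp and 8 at a limit of 1.5-fold, and lower were 0 with normexp, 0 with only probes measured on both arrays and 7 at 1.5-fold. The shares over all probes given above hold for the main setting alone. The counts under other settings therefore have no background beside them and do not show more imprinted probes past a limit than other probes. The median of all members was -0.013 with quantile normalisation and -0.033 with loess centring. The maternal median was 0.23 with normexp and 0.44 with the brightest probe. The cause was not tested.

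Neither the paternal nor the maternal median changed sign under these settings. The settings did not vary which genes make up each group. Among the 37 genes, SGCE changed sign with median centring, UBE3A and GRB10 with quantile and with loess, and IGF2 and HYMAI with normexp. By more than the spot SD, normexp moved 22 of the 37 genes, quantile 14 and loess 15. Median centring put the median of all genes at 0.13.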
